A study of Gallus gallus with 6 samples.

Results

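The heat shock proteins and J-domain co-chaperones of chicken jejunum were described as a single chaperone system. Members were taken by gene symbol: every gene whose name began with HSP followed by a letter from A to H or a digit, or with DNAJA, DNAJB or DNAJC and a digit. The rule used no measured value. It took 58 of the 24356 genes listed, 22 of them heat shock proteins and 36 J-domain proteins, and left out 2 genes, HSPG2 and HSPBAP1, which share the letters but are not chaperones. By their known sites, 31 members belong to the cytosol and nucleus, 11 to the endoplasmic reticulum (ER), 8 to mitochondria, and 8 to other or uncertain sites.

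Heat shock proteins hold, fold and refold other proteins. The HSP70 proteins bind exposed stretches of unfolded chains in a cycle driven by ATP. J-domain proteins bring clients to HSP70 and start its ATP hydrolysis, and exchange factors such as the HSP110 proteins release the nucleotide so that the cycle can begin again. HSP90 proteins act later on nearly folded clients, small heat shock proteins hold unfolded chains without ATP, and the HSP60 and HSP10 chaperonin folds proteins inside mitochondria. Heat, oxidants and other stresses raise many of the cytosolic genes through heat shock factors, whereas the ER members are raised by the unfolded protein response. The jejunal epithelium renews itself continuously and secretes mucus and enzymes, and so makes steady use of these proteins.

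The libraries came from the jejunum of 6 Korat chickens, a slow-growing crossbred line, taken at 10 weeks of age with 1 poly(A) library per bird. Birds L1, L2 and L3 had an extremely low feed conversion ratio (FCR, feed eaten per unit of weight gained) and birds H1, H2 and H3 an extremely high one. All were caged singly with free access to the same starter, grower and finisher feeds, were described by the study as males, and were fasted before slaughter. No allele or agent set the groups apart, so FCR was a trait on which the birds were ranked, not a treatment. The label of H3 names low FCR in words and H3 in its code, and the bird was grouped as high-FCR, as the study's text has it.

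The count totals lay between 10436038 and 11370043 reads per bird. L1 stood apart with 16140 reads on chromosome W genes against 48 to 80 in the other birds, although the study describes all birds as males. The sex of L1 is therefore uncertain, and the source of these reads was not tested. L1 also had the lowest scaling factor (0.870, the others up to 1.06). The intestinal epithelium marker EPCAM was at 1345 to 1872 CPM (counts scaled to the library total after TMM adjustment) in all birds. Of the 9 tested enterocyte markers, EPCAM among them, 8 differed over 2-fold between the highest and lowest bird, and the median ratio over the 9 was 5.21. The ileal gene FABP6 ran from 13.5 CPM in L2 to 4580 in L1. The libraries hold whole tissue, in which fewer cells of a type and less RNA per cell cannot be told apart. Levels of single genes are given below as CPM where birds are compared. FPKM, the count divided by exonic length and by the column total without TMM adjustment, is used where genes are compared. Sums over members are given mostly in FPKM, between birds as well.

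Chaperone transcripts were abundant and uneven between birds. Summed over the members, FPKM reached 6642, 2986 and 8717 for L1, L2 and L3 among the low-FCR birds, and 3174, 3304 and 5367 for H1, H2 and H3 among the high-FCR birds. The sum was thus high in L1, L3 and H3 and low in L2, H1 and H2, and the groups overlapped. As a share of all counts the members took 1.88%, 0.834% and 2.18% in the low-FCR birds, and 0.814%, 0.891% and 1.58% in the high-FCR birds, in the same order.

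**Figure D1:**
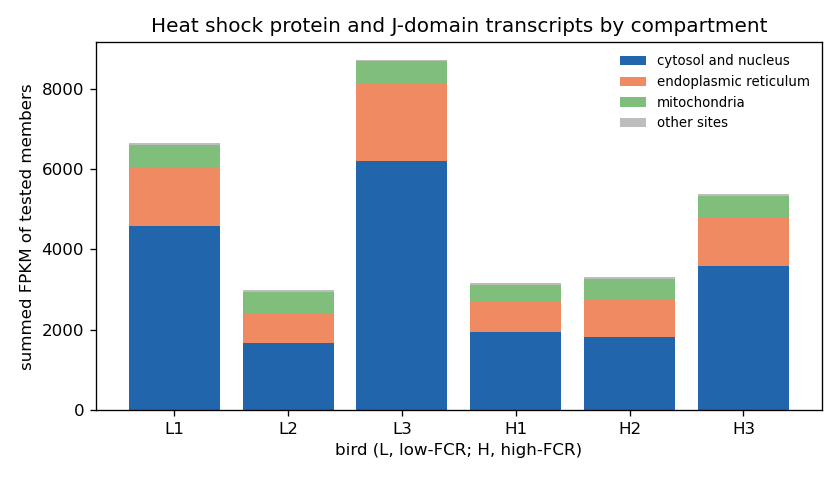
Summed FPKM of the 55 tested members in each bird, stacked by compartment (L, low-FCR; H, high-FCR). L1, L3 and H3 have the tall bars, and most of the height comes from the cytosolic members, which sum to 4593, 6190 and 3595 FPKM in those birds.

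In summed FPKM the difference between birds lay mostly in the cytosolic members and, to a lesser extent, in the ER members. Cytosolic members summed to 4593, 1672 and 6190 FPKM in the low-FCR birds and to 1947, 1829 and 3595 FPKM in the high-FCR birds. ER members summed to 1425, 749.8 and 1944 FPKM in the low-FCR birds and to 750.2, 921 and 1202 FPKM in the high-FCR birds. Mitochondrial members varied less, between 425 FPKM in H1 and 575 FPKM in L1.

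A few genes carried these sums. HSPA8, the constitutive HSP70 of the cytosol, had the highest mean of the members at 804 FPKM and ranked 68 among all genes. HSP90AA1, the inducible HSP90, followed at 648 FPKM, the ER proteins HSPA5 (BiP) and HSP90B1 (GRP94) at 479 and 413 FPKM, and the small heat shock protein HSPB1 at 367 FPKM. These 5 genes made up 62.3%, 46.6% and 51.9% of all member FPKM in the low-FCR birds, and 46.3%, 44.2% and 61.3% in the high-FCR birds. Their share was therefore largest in L1 and H3, both birds with a high sum.

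No member passed the test between low-FCR and high-FCR jejunum. A gene was tested where its mean FPKM was at least 0.5, which 55 of the 58 members and 14282 genes in all met. With edgeR's quasi-likelihood test and Benjamini-Hochberg adjustment, 0 members had an adjusted p under 0.05, as had 0.0% of all genes tested, and the adjusted p was 0.997 for each of the 55 members. At an unadjusted p under 0.05, edgeR gave 2 members with a higher mean in low-FCR birds, HSPB9 and DNAJA4, where 2.02% of all genes tested were so called. It gave 1 member with a lower mean, DNAJC12, where the background was 1.22%. The 3 members called in either direction stood against 3.24% of all genes. DESeq2 and limma also gave 0 members at an adjusted p under 0.05, although DESeq2 called 8 other genes (0.0562%), and at an unadjusted p under 0.05 DESeq2 gave 5 members with a higher and 1 with a lower mean, where 2.59% and 1.498% of all genes were so called.

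The members leaned towards higher fitted values in low-FCR jejunum, by small amounts. Of the 55 tested, 36 had a log2 fold change (FC, low-FCR over high-FCR) above 0, against 51.8% of all genes, and their median log2 FC was 0.20 against 0.02 over all genes. The median was 0.29 for 30 cytosolic members (21 above 0), 0.20 for 11 ER members (7 above 0), 0.20 for 8 mitochondrial members (7 above 0) and -0.14 for the 6 of other sites (1 above 0). The heat shock proteins had the larger median, 0.41 over 21 genes with 17 above 0, and the J-domain proteins were at 0.08 over 34 genes with 19 above 0. The median of all members was 0.07 without L1. With limma on log2(FPKM + 0.5), which scales to total counts and also changes the test, it was 0.04, 30 members were above 0, and the all-gene median was -0.09. Within a bird, the members' median log2 level around each gene's mean was 0.28, -0.21 and 0.13 in L1, L2 and L3. In H1, H2 and H3 this level was -0.061, -0.13 and -0.00043. Its pooled SD between birds was 0.18, near the median log2 FC of 0.20, and for cytosolic members 0.30, near 0.29.

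**Figure D2:**
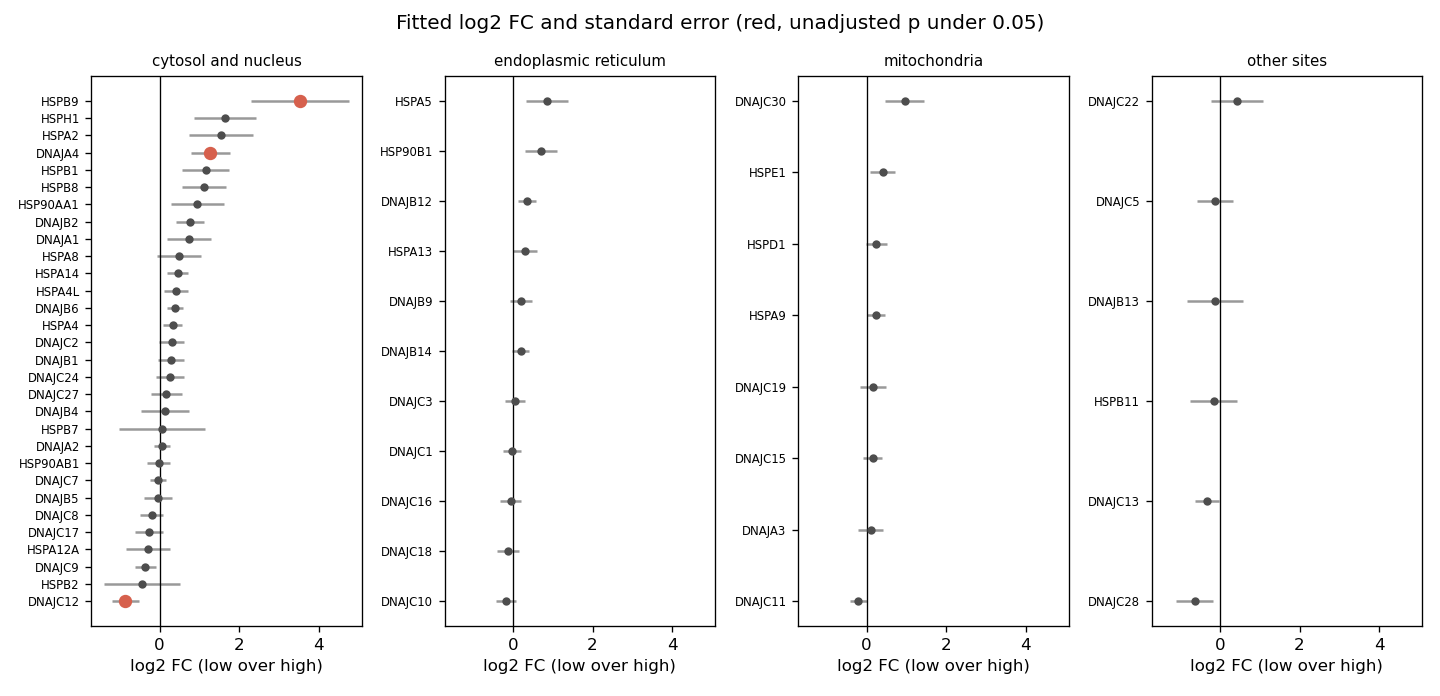
Fitted log2 FC of low-FCR over high-FCR jejunum for each of the 55 tested members, with its standard error as a bar, in a panel for each compartment. The 3 red points (HSPB9, DNAJA4 and DNAJC12) have an unadjusted p under 0.05, and the widest range of values is in the cytosolic panel.

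Birds of the same group lay far apart in the same genes. The 3 highest birds were L1, L3 and H3 in 18 of the 55 members, a ranking that 8.79% of all genes tested shared. Of these 18, 13 were cytosolic, 3 were ER members (HSPA5, HSP90B1 and DNAJC1) and 2 were mitochondrial (HSPD1 and HSPE1), and 12 were heat shock proteins. This ranking was picked after the values were seen and is given as a description without a test.

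Single birds led the members unevenly. The highest bird was L3 in 22 members (22.0% of all genes), L1 in 17 (26.1%), L2 in 5 (11.3%), H1 in 5 (10.5%), H2 in 5 (17.4%) and H3 in 1 (12.8%). H3 was above both other high-FCR birds in 28 of the 55, a count for which the share of all genes was not computed. Yet it was the highest of all birds in only 1. The highest bird exceeded the lowest by over 2-fold in 33 members, against 61.5% of all genes. The median ratio of highest to lowest bird was 2.19 for the members and 2.32 for all genes. It was 2.43 in the cytosol, 1.74 in the ER, 1.86 in mitochondria and 4.01 in the 6 members of other sites.

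**Figure D3:**
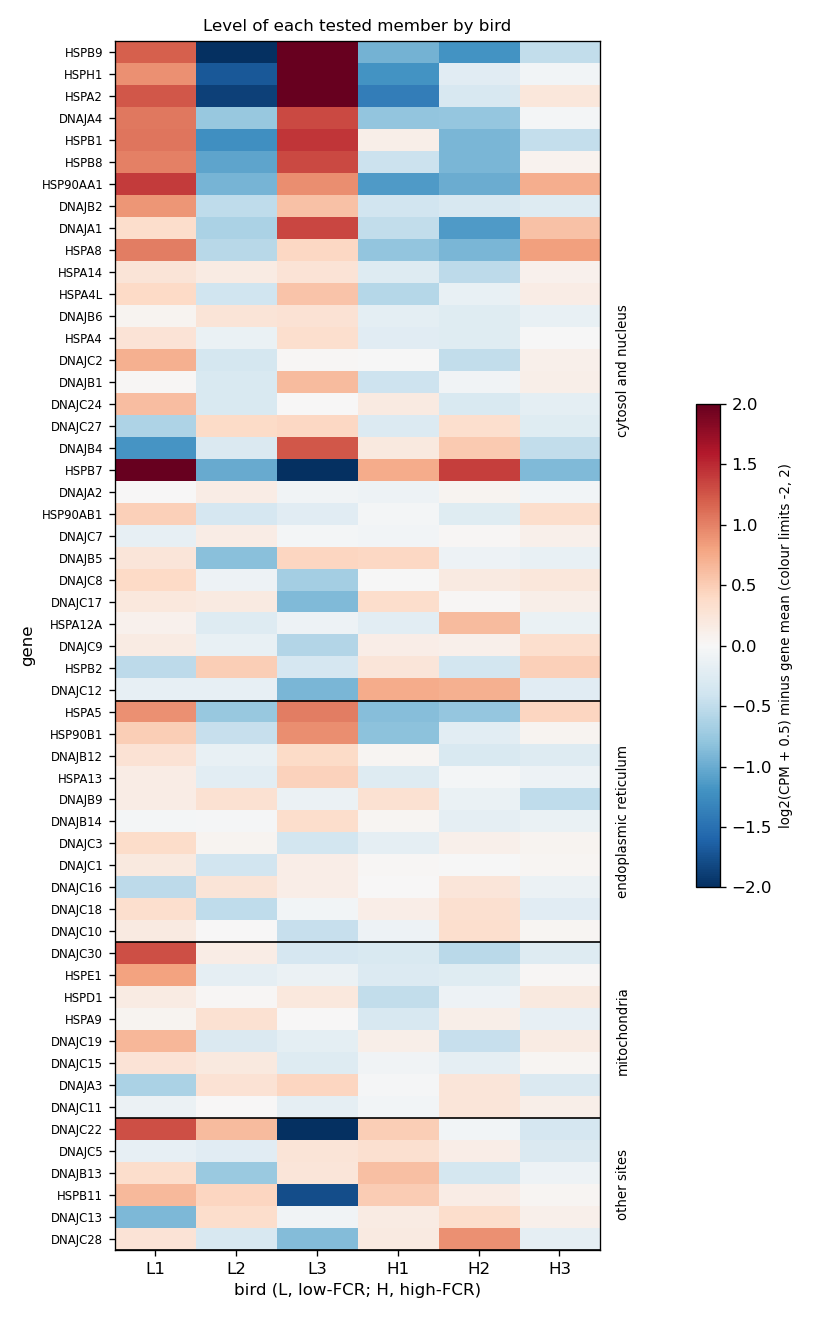
Level of each tested member in each bird, as log2(CPM + 0.5) minus the gene's mean over the 6 birds, grouped by compartment and ordered by log2 FC. The upper cytosolic rows and HSPA5 and HSP90B1 are red in L1 and L3 and blue in L2, HSP90AA1 and HSPA8 are red in H3 as well, and DNAJA2 and DNAJC7 stay near white.

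Among the cytosolic folding machines, HSP90AA1 (chromosome 5, 49673894 to 49685640 of GRCg6a) was at 6423, 1271 and 4625 CPM in L1, L2 and L3 and at 1105, 1229 and 4047 CPM in H1, H2 and H3. L1, L3 and H3 were each several times higher than L2, H1 and H2, so the groups overlapped. Its mean was 4106 ± 2615 CPM in low-FCR and 2127 ± 1664 CPM in high-FCR birds (SD, n = 3 each), with a log2 FC of 0.95 (SE 0.67), which was 0.46 without L1 and 1.82 without H3. HSP90AB1 (chromosome 3, 30393097 to 30399049), which encodes the constitutive HSP90, was at 88.2, 50.01 and 53.9 CPM in the low-FCR and 61.4, 53.4 and 80.9 CPM in the high-FCR birds. Its group means were thus nearly level, with a log2 FC of -0.03 (SE 0.29), while L1 and H3 lay above the other birds. In FPKM, HSP90AA1 exceeded HSP90AB1 43.5-fold in L1, 15.2-fold in L2, 51.3-fold in L3, 10.8-fold in H1, 13.8-fold in H2 and 29.9-fold in H3. These genes are close relatives, and how the counting treated reads that matched both is not given in the sources used here.

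HSPA8 (chromosome 24, 3102875 to 3110564) followed the same birds. It was at 4804, 1615 and 3165 CPM in L1, L2 and L3 and at 1375, 1262 and 4196 CPM in H1, H2 and H3. L1 and H3, from opposite groups, were the highest, and its log2 FC was 0.49 (SE 0.56). Without L1 the log2 FC of HSPA8 was 0.05, and without H3 it was 1.28.

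HSPA2 (chromosome 5, 53057972 to 53060373), another HSP70 gene of the cytosol, was at 934, 107 and 1672 CPM in the low-FCR birds and at 151, 316 and 462 CPM in the high-FCR birds. L1 and L3 stood above all other birds and L2 below all of them. Its log2 FC was 1.55 (SE 0.81), and 0.75 without L3. In FPKM, HSPA8 exceeded HSPA2 10.5-fold in L2 and only 1.32-fold in L3, so the more abundant of the HSP70 transcripts varied less than the scarcer one.

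The exchange factors of HSP70 differed in their spread between birds. HSPH1 (HSP110, chromosome 1, 176342901 to 176364943) was at 240.1, 38.7 and 605 CPM in L1, L2 and L3 and at 55.1, 108 and 122 CPM in H1, H2 and H3. L3 had the highest and L2 the lowest value of all birds, and the log2 FC was 1.64 (SE 0.78). Its relatives HSPA4 and HSPA4L had the same 3 highest birds in a narrower range, HSPA4 from 188 to 282 CPM (log2 FC 0.33) and HSPA4L from 66.1 to 146 CPM (log2 FC 0.41). Without L3, the log2 FC of HSPH1 was 0.55.

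**Figure D4:**
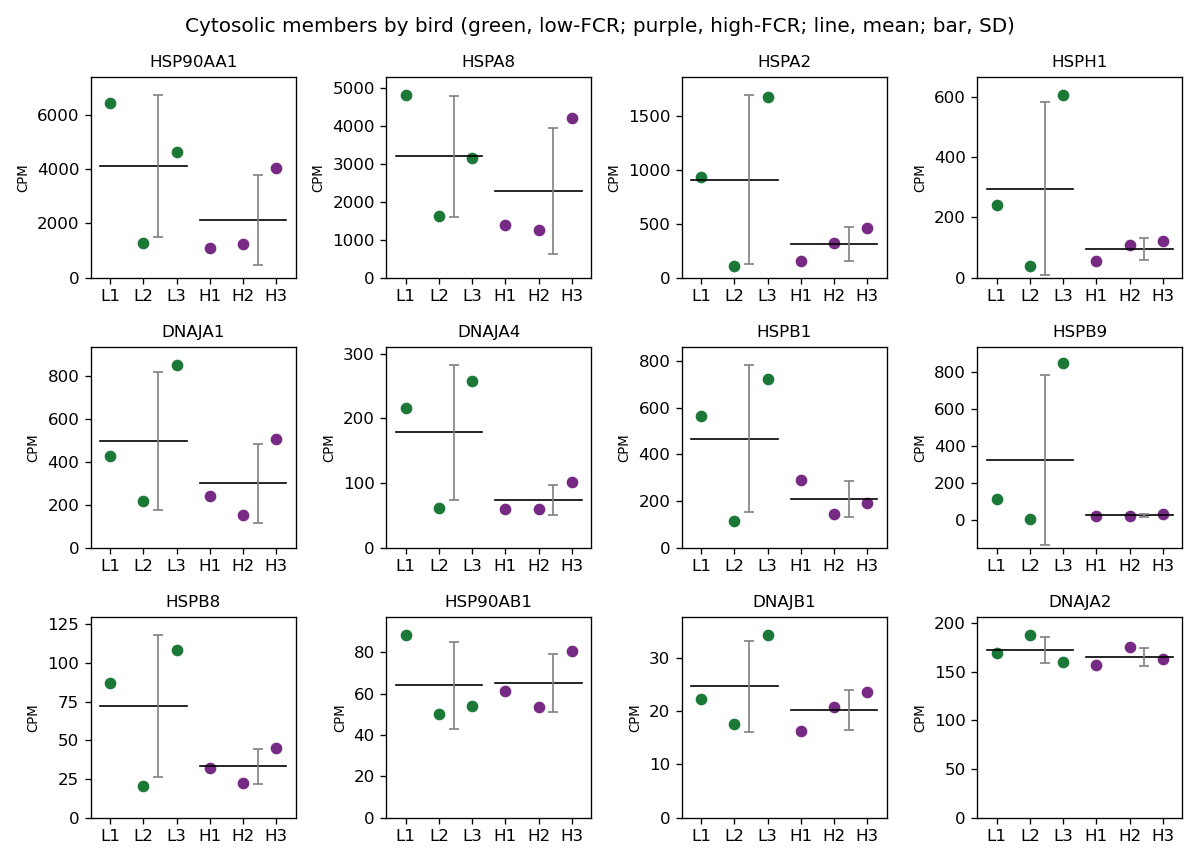
CPM of 12 cytosolic members in each bird (green, low-FCR; purple, high-FCR), with the group mean as a line and the SD as a bar, on a linear axis for each gene. L2 lies with H1 and H2 in HSP90AA1, HSPA8 and DNAJA4 while L1 and L3 lie above, and HSP90AB1 and DNAJA2 show no such split.

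The small heat shock proteins held the member with the largest fold. HSPB9 (chromosome 27, 7654604 to 7655550) was at 117, 7.85 and 847 CPM in L1, L2 and L3 and at 26.1, 22.0 and 35.9 CPM in H1, H2 and H3. L3 was 108-fold above L2, its own group's lowest bird, and L2 was also below every high-FCR bird, so the groups overlapped. The fitted log2 FC was 3.53 (SE 1.24) with an adjusted edgeR p of 0.997, and its unadjusted call was lost without L3 (log2 FC 1.15), H1 (3.49) or H2 (3.38). It was also lost with H3 as low-FCR (3.39) and with the replicate number as a block (1.92). The bird number series as a term (3.63), limma on quantile-normalized CPM (1.77) and limma on log2(FPKM + 0.5) (1.65) lost it too.

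HSPB1, which encodes the HSP27-type small heat shock protein (chromosome 19, 4403291 to 4405344), was at 564, 114 and 723 CPM in the low-FCR birds and at 291, 142 and 193 CPM in the high-FCR birds. HSPB8, a partner of BAG3 in the removal of misfolded proteins (chromosome 15, 10006078 to 10008129), was at 87.3, 20.3 and 108 CPM in the low-FCR birds and at 31.9, 22.5 and 45.1 CPM in the high-FCR birds. In both genes L1 and L3 were the highest birds and L2 was the lowest of all. The log2 FC was 1.16 (SE 0.59) for HSPB1 and 1.12 (SE 0.54) for HSPB8. The muscle-type relatives were scarce: HSPB7 ran from 0.913 CPM in L3 to 31.1 CPM in L1 and HSPB2 stayed under 1 CPM in each bird.

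Among the J-domain partners of cytosolic HSP70, DNAJA4 (chromosome 10, 4188720 to 4194426) was at 215, 60.6 and 258 CPM in L1, L2 and L3 and at 59.4, 59.9 and 101 CPM in H1, H2 and H3. L1 and L3 were above every high-FCR bird and L2 sat with H1 and H2. The log2 FC was 1.28 (SE 0.49) with an adjusted edgeR p of 0.997, and its unadjusted call was lost without L1 (log2 FC 1.11), L3 (0.91), H1 (1.15) or H2 (1.15). DNAJA1, a class A partner on chromosome Z (70797443 to 70805858), was at 427, 217 and 849 CPM in the low-FCR and 239, 153 and 506 CPM in the high-FCR birds, with H3 above L1. Its log2 FC was 0.73 (SE 0.56), which was 0.82 without L1, whose sex is uncertain, 0.11 without L3 and 1.35 without H3.

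Other class A and B partners ranged from uneven to flat. DNAJB2, which binds ubiquitinated clients, was at 62.7, 23.5 and 50.6 CPM in the low-FCR and 25.9, 26.8 and 28.2 CPM in the high-FCR birds, and L2 alone kept the groups from separating (log2 FC 0.76, SE 0.35). DNAJB1, the J-domain protein named HSP40, was at 22.3, 17.7 and 34.3 CPM in the low-FCR and 16.3, 20.8 and 23.7 CPM in the high-FCR birds. Its mean was 22.2 FPKM. DNAJB1 had the same 3 highest birds as HSP90AA1, and L3 was its highest (log2 FC 0.29, SE 0.33, and -0.021 without L3). DNAJA2, a close relative of DNAJA1, was at 157 to 188 CPM in all birds, and DNAJC7, which links HSP70 and HSP90, at 105 to 130.2 CPM.

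In 2 of the tested members the groups did not overlap, DNAJB6 and HSPA14, each with higher values in low-FCR birds, where 2.97% of all genes tested were higher and 3.4% lower without overlap. DNAJB6, a J-domain protein that holds back aggregation (chromosome 2, 8738366 to 8788229), was at 185, 212 and 217 CPM in L1, L2 and L3 and at 155, 151 and 161 CPM in H1, H2 and H3. HSPA14, a ribosome-associated HSP70 relative (chromosome 1, 7970728 to 7981610), was at 33.1, 30.9 and 33.6 CPM in the low-FCR and 23.0, 19.1 and 29.4 CPM in the high-FCR birds. Both differences were small, with a log2 FC of 0.40 (SE 0.21) for DNAJB6 and 0.45 (SE 0.26) for HSPA14. In FPKM, which scales by total counts, neither kept its groups apart.

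DNAJC12 was the member with the lowest log2 FC. It encodes a J-domain partner of the hydroxylases that act on aromatic amino acids (chromosome 6, 7337219 to 7349970). DNAJC12 was at 40.8, 41 and 24.2 CPM in the low-FCR birds and at 77.4, 75.6 and 39.3 CPM in the high-FCR birds. H1 and H2 stood above all other birds and H3 lay just below L1 and L2. The log2 FC was -0.86 (SE 0.34) with an adjusted edgeR p of 0.997, and its unadjusted call was lost without L3 (log2 FC -0.65), H1 (-0.70) or H2 (-0.72). The remaining cytosolic and nuclear members had log2 FC values between -0.44 (HSPB2) and 0.30 (DNAJC2, a ribosome-associated J-domain protein at 190.4 to 437 CPM), among them the spliceosome proteins DNAJC8 and DNAJC17 and the histone-binding DNAJC9. DNAJB4, DNAJB5, DNAJC24, DNAJC27 and the distant HSP70 relative HSPA12A also lay in this range.

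In the ER the lumenal chaperones carried the difference between birds. HSPA5 (chromosome 17, 9890855 to 9894996), the HSP70 that pulls chains into the ER and holds the stress sensors silent, was at 1896, 595 and 2045 CPM in L1, L2 and L3 and at 552, 589 and 1354 CPM in H1, H2 and H3. HSP90B1 (chromosome 1, 54708818 to 54718953), the HSP90 of the ER, was at 1624, 837 and 2200 CPM in the low-FCR and 653, 999 and 1192 CPM in the high-FCR birds. In both genes L1 and L3 led and H3 came next. The log2 FC was 0.86 (SE 0.53) for HSPA5 and 0.71 (SE 0.40) for HSP90B1.

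The J-domain proteins of the ER varied little beside these. DNAJB12, an ER membrane protein whose J domain faces the cytosol, was at 154, 114 and 164 CPM in the low-FCR and 129.5, 102 and 106 CPM in the high-FCR birds (log2 FC 0.35, SE 0.23). The BiP partners DNAJB9 (ERdj4) and DNAJC3 (P58IPK) were at 26.4 to 46.8 and 152 to 254 CPM, and neither was highest in L3 or H3. DNAJC18 had the highest mean of the ER J-domain proteins at 91.5 FPKM and was at 65.3 to 118 CPM. The other ER members, including the HSP70 relative HSPA13, the membrane proteins DNAJB14, DNAJC16 and DNAJC1 and the disulfide reductase DNAJC10, had log2 FC values from -0.17 (DNAJC10) to 0.29 (HSPA13).

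The mitochondrial members were led by the chaperonin, and a few stood out in L1. HSPD1 (HSP60, chromosome 7, 10221487 to 10231186) was at 615, 558 and 636 CPM in L1, L2 and L3 and at 392, 510.0 and 628 CPM in H1, H2 and H3. The groups overlapped through H3, and the log2 FC was 0.24 (SE 0.26). HSPE1 (HSP10), its lid, lies beside it from 10231654 to 10236618 on the opposite strand and was at 269, 136 and 142 CPM in the low-FCR and 127, 130.0 and 157 CPM in the high-FCR birds. L1 alone was high in HSPE1, whose log2 FC was 0.40 (SE 0.30) with L1 and 0.01 without it. The ratio of HSPD1 to HSPE1 in FPKM was lowest in L1, at 1.18, and elsewhere between 1.59 and 2.31.

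HSPA9, the HSP70 of the matrix, was at 244, 288 and 235 CPM in the low-FCR and 187, 253 and 209 CPM in the high-FCR birds (log2 FC 0.24, SE 0.23), and its partner DNAJA3 was lowest in L1 at 34.3 CPM and elsewhere at 44.0 to 72.2 CPM. DNAJC30, a small mitochondrial J-domain protein, was at 17.2, 7.49 and 5.20 CPM in the low-FCR and 5.31, 4.47 and 5.54 CPM in the high-FCR birds. Its log2 FC of 0.96 (SE 0.49) was 0.31 without L1. The inner membrane proteins DNAJC15 and DNAJC19 and DNAJC11 of the outer membrane region had log2 FC values between -0.21 and 0.16. Reads of the mitochondrial genome took 14.2%, 13.8% and 8.99% of counts in the low-FCR birds and 10.0%, 11.9% and 13.1% in the high-FCR birds, and these shares did not rank the birds as the cytosolic chaperones did.

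The members of other sites had no highest bird in common, and L3 was the lowest bird in 3 of the 6 tested. DNAJC28, an uncharacterised J-domain protein, had the smallest p of these (log2 FC -0.64, SE 0.46) at 4.20 to 15.7 CPM. DNAJC22, a membrane protein, ran from 15.0 CPM in L3 to 151 in L1, and HSPB11 (IFT25), an intraflagellar transport subunit, from 2.28 CPM in L3 to 14.5 in L1. Both, like DNAJC28, were lowest in L3, the bird with the highest summed FPKM of the members. In summed CPM of the tested members L1 was the higher, at 21632 against 20804 in L3. The endosomal DNAJC13 was at 45.5 to 109 CPM, and DNAJC5 and DNAJB13 did not exceed 3.74 and 1.92 CPM.

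Of the 3 members below the filter, DNAJC5B had 0 counts in all birds, and 3 counts, the limit that a count of 0 allows, are worth 0.249 to 0.304 CPM. HSPB3 had 6, 7 and 17 counts in the low-FCR and 6, 2 and 1 in the high-FCR birds. DNAJC6 (auxilin), which uncoats clathrin vesicles, had 21, 10 and 23 counts in the low-FCR and 9, 7 and 9 in the high-FCR birds. In CPM neither HSPB3 nor DNAJC6 overlapped between groups, both at very low counts and untested. All such limits cover counting error only.

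The partners of these chaperones, read from lists of known pathway genes, had in part the same highest birds as the cytosolic members. Of 20 tested co-chaperones of HSP70 and HSP90, 15 had a log2 FC above 0 (51.8% of all genes) with a median of 0.28. In 10 the 3 highest birds were L1, L3 and H3 (8.79% of all genes), a ranking picked after the values were seen. BAG3, the HSP70 exchange factor that works with HSPB8, was at 272, 45.2 and 272 CPM in the low-FCR and 63.5, 75.7 and 89.0 CPM in the high-FCR birds (log2 FC 1.37, adjusted p = 0.997 with edgeR). BAG3 was the only co-chaperone with an unadjusted edgeR p under 0.05, where 3.24% of all genes were called in either direction. STIP1, which joins HSP70 to HSP90, was at 303, 137 and 309 CPM in the low-FCR and 111, 121 and 288 CPM in the high-FCR birds, and AHSA1, which speeds HSP90, at 196, 75.7 and 151 and at 69.1, 69.3 and 129 CPM. These values were high in the same birds as HSP90AA1.

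All 7 tested subunits of the cytosolic chaperonin CCT, which folds actin and tubulin, had a log2 FC above 0 (51.8% of all genes) with a median of 0.19. In 6 the 3 highest birds were L1, L3 and H3 (8.79% of all genes). Every tested subunit was lowest in H1. TCP1, with the smallest p of these (log2 FC 0.38), was at 355, 193 and 239 CPM in the low-FCR and 162, 192 and 251 CPM in the high-FCR birds.

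**Figure D5:**
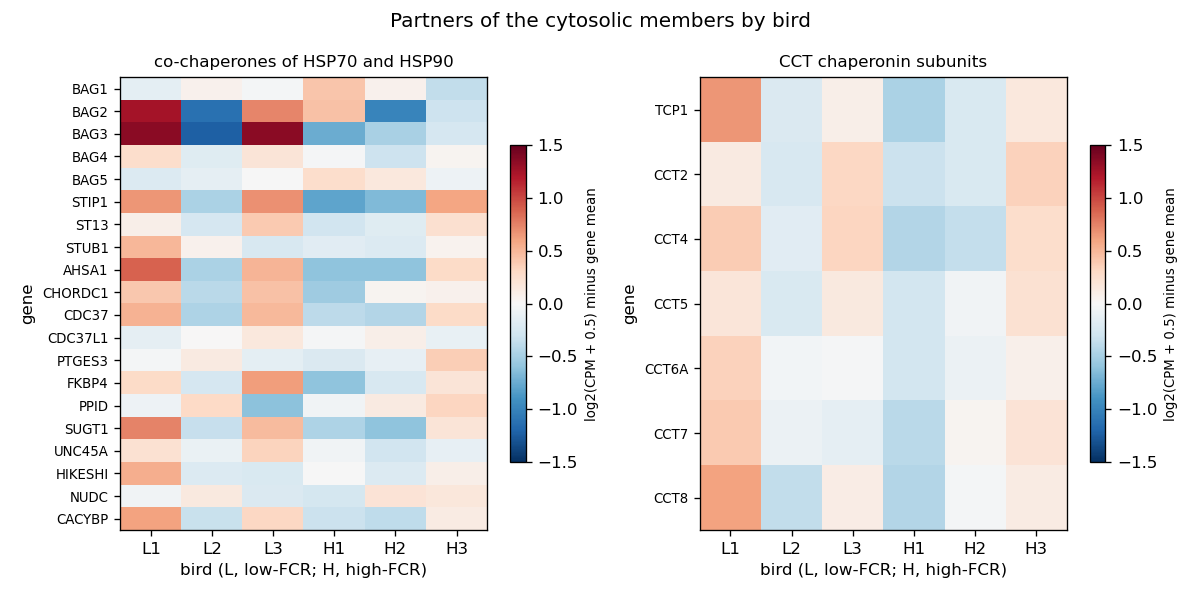
Levels of 20 co-chaperones of HSP70 and HSP90 and of 7 CCT chaperonin subunits by bird, as log2(CPM + 0.5) minus the gene's mean. BAG3, STIP1, AHSA1 and CDC37 are red in L1 and L3 and blue in L2, and all CCT subunits are blue in H1.

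The heat shock factors were read as transcripts only, and their activity was not measured. HSF1, the main inducer of cytosolic chaperones in mammals, was at 6.79, 19.0 and 14.9 CPM in the low-FCR and 14.3, 19.6 and 22.4 CPM in the high-FCR birds, lowest in L1. HSF2 was at 22.1 to 33.1 CPM and HSF3, a factor that takes part in the heat shock response of birds, at 83.4 to 129 CPM. L1, L3 and H3 were the highest birds in 0 of the 3 tested (8.79% of all genes). With so few genes this count cannot be read either way. HSF4 was below the filter.

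Of 26 tested genes of ER folding and the unfolded protein response, 17 had a log2 FC above 0 (51.8% of all genes). Their median was 0.13, and 5 had L1, L3 and H3 highest (8.79% of all genes). CHAC1, a glutathione-degrading enzyme raised by ATF4, was at 12.7, 5.35 and 16.0 CPM in the low-FCR and 3.31, 3.15 and 4.05 CPM in the high-FCR birds (log2 FC 1.69, adjusted p = 0.997 with edgeR). Its groups did not overlap, where 2.97% of all genes were higher without overlap. CHAC1 was the only gene of this list with an unadjusted edgeR p under 0.05, where 3.24% of all genes were called in either direction. The paper lists CHAC1 among its genes higher in low-FCR birds, from these same libraries. The stress sensor EIF2AK3 (PERK) had the next smallest p (log2 FC -0.58). Of 12 tested mitochondrial chaperones and proteases outside the members, 6 were above 0 and 6 below, the median was 0.00, and 0 had L1, L3 and H3 highest.

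Markers of 8 tissue components were read for the same birds, and 0 of these lists had L1, L3 and H3 as the 3 highest birds in summed CPM. Only 8.79% of single genes tested had this ranking, so with 8 lists a count of 0 cannot be read either way. Some sums rest mostly on 1 gene, as FABP6 at 4580 of 4822 CPM in L1 and JCHAIN at 3648 of 3831 CPM in H2. Enterocyte markers summed to 11600, 9328 and 6219 CPM in the low-FCR and 9575, 5149 and 3795 CPM in the high-FCR birds, with H3 lowest. Smooth muscle markers summed to 16322, 4346 and 6747 CPM in the low-FCR and 11409, 5526 and 6997 CPM in the high-FCR birds, with L2 lowest as in many cytosolic members. Distal small intestine markers ran from 55.1 CPM in H3 to 4822 in L1, with SLC10A2, the ileal bile acid transporter, at 0 counts in L2, striated muscle markers from 25.4 CPM in H3 to 92.1 in H1, lymphocyte markers from 734 CPM in L1 to 1952 in H3, and plasma cell markers from 1018 CPM in L1 to 3831 in H2. Proliferation markers lay between 394 and 646 CPM and erythrocyte markers between 60.5 and 107 CPM. Single markers were called higher in low-FCR birds at an unadjusted edgeR p under 0.05, where 2.02% of all genes tested were so called. They were 1 of 9 tested enterocyte markers, 2 of 5 striated muscle markers and 2 of 2 erythrocyte markers, and 0 in the other lists. Neither tested erythrocyte marker overlapped between groups, where 2.97% of all genes tested were higher without overlap. HBA1 was at 18.5 to 26.5 CPM against 6.96 to 17.0 (log2 FC 1.04) and ALAS2 at 78.1 to 80.8 CPM against 43.5 to 66.4 (log2 FC 0.54). SLC4A1, an erythrocyte marker below the filter, had 12, 33 and 13 counts in the low-FCR and 17, 58 and 63 in the high-FCR birds. HBBA, also below the filter, had at most 2 counts in any bird. The enterocyte peptidase ANPEP was also called without overlap, at 2161 to 4217 CPM against 1174 to 1882 (log2 FC 0.93). Of the striated muscle markers, whose sum is mostly ACTA1, NRAP was at 5.57, 1.52 and 19.6 CPM in the low-FCR and 1.65, 0.994 and 0.704 CPM in the high-FCR birds (log2 FC 2.98), and MYOZ3 at 6.28, 1.69 and 27.02 and at 1.83, 1.33 and 2.38 CPM (log2 FC 2.66). L3 and L1 were highest in NRAP and MYOZ3, as in HSPB9 and HSPH1. L2 lay within the range of the high-FCR birds in NRAP and MYOZ3, and below that range in HSPB9 and HSPH1. The paper lists NRAP and MYOZ3 among its genes higher in low-FCR birds, from these same libraries, so their direction here is not separate evidence. Of the 5 tested striated muscle markers 4 had a log2 FC above 0, and ACTA1 was at -0.22. The part of these shifts in the chaperone values was not tested.

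The bird numbers in the labels were a further difference. Those of L1, L2, L3 and H1 have the form 41xxx, and those of H2 and H3, both high-FCR birds, do not. The birds were split into number series by this form alone. The labels do not say what the numbers stand for, or whether H2 and H3 belong together. Within the series of L1, L2, L3 and H1 the median log2 FC of the members was 0.15, of cytosolic members 0.40 and of ER members 0.07, and 0 members had a higher and 1, DNAJC12 (log2 FC -1.13), a lower mean at an unadjusted edgeR p under 0.05, where 0.364% and 0.672% of all genes were so called. H1 is the only high-FCR bird there and was assumed to vary like the others. With H3 grouped by the words of its label, as low-FCR, 6 members had a higher mean at an unadjusted edgeR p under 0.05, among them HSP90AA1 (log2 FC 1.81), HSPA8 (1.39) and HSPA5 (1.37), where 1.35% of all genes were higher, and 0 passed the adjusted threshold. Leaving out L2 gave 9 such members, among them HSPH1, HSPB1, HSPA2 and HSP90B1, where 5.58% of all genes were then higher, and again 0 after adjustment.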

How the data were processed

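The members and the pathway and marker lists were chosen with earlier results of these data known. RNA with an integrity number above the study's minimum was made into poly(A) libraries. According to the paper's methods and the submitters' processing notes, reads were trimmed with Cutadapt 1.9.1, mapped to GRCg6a with HISAT2 2.0.1 and counted per gene with HTSeq 0.6.1, and Cufflinks 2.2.1 and DESeq2 were also used. The authors deposited whole-number counts per gene, not normalized, and FPKM values for the same birds in 1 table, with the exonic length of each gene. The deposited FPKM equalled the count divided by exonic length and by the column total in 100% of values within 0.0051 FPKM. The strand setting, the treatment of reads shared by overlapping or near-identical genes and the annotation release are not given in the sources used here, so near-identical paralogs and antisense partners are uncertain.

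Tests were limited to genes at a mean FPKM of 0.5 or more, and were run on counts with edgeR 4.0.16 in R 4.3.3 (TMM factors, quasi-likelihood F test, 3 low-FCR against 3 high-FCR birds, Benjamini-Hochberg adjustment over all genes tested). Replicates are separate birds. CPM uses the TMM-scaled totals. limma 3.58.1 (on log2 FPKM with pseudocounts of 0.5 and 1, and on quantile-normalized log2 CPM) and DESeq2 1.42.0 were alternatives, beside another scaling, other filters, the replicate number as a block, the other group for H3, the bird number series, and leaving out birds. The fits were tested on simulated data.

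The text names, per compartment, the 4 members with the smallest p, the 4 with the highest mean FPKM, those called or without overlap, and a set of well-known chaperones. Of that set, HSP25 and DNAJB11 were not matched by symbol and are not analysed here. From other lists it names at most 4 genes with the smallest p. Others (EPCAM, STIP1, CDC37 and ACTA1, and below the filter SLC4A1, HBBA and HSF4) were named after their values were seen. Some further members, among them HSPB8, HSPA4, HSPA4L, DNAJA2, DNAJC7 and HSPB7, are given with values though these rules did not pick them. All 58 symbols matched the RefSeq gene table. Intervals of counts cover counting error only, since reads carry no molecular identifiers.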

Additional observations from a re-analysis of the deposited data

How the results depend on the processing

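No alternative gave a member with an adjusted p under 0.05, and the medians by compartment moved by less than the spread between birds, that of all members lying between 0.07 (without L1) and 0.27 (without L2) with birds left out. Shares in brackets are those of all genes in the same fit. The number of members higher at an unadjusted p under 0.05 (2 with edgeR) was 5 with DESeq2 (2.59%), 6 without a filter on low values (2.35%), 6 with H3 as low-FCR (1.35%), 1 without L1 and H3 (0.931%), 0 with limma on quantile-normalized CPM (1.27%) and on FPKM at both pseudocounts (0.805% and 0.798%), 0 with the number series as a term (0.525%) and 0 within the series of L1, L2, L3 and H1 (0.364%), and it ranged from 0 to 9 when birds were left out in turn (0.917% to 5.58%). The number lower (1) was 3 without L1 and H3 (0.784%) and 0 to 2 when birds were left out (0.742% to 4.33%). The number without overlap and higher (2) was 4 without a filter (3.42%), 0 on FPKM (1.67%), 9 with H3 as low-FCR (4.93%), 15 within the series (16.2%), 11 without L1 and H3 (11.2%) and 3 to 17 with birds left out (6.01% to 14.2%). The number without overlap and lower (0) was 2 on FPKM (5.04%), 1 with H3 as low-FCR (4.78%), 5 within the series (17.2%), 6 without L1 and H3 (11.5%) and 0 to 4 with birds left out (6.53% to 13.1%). The log2 FC of HSP90AB1 turned from -0.03 to 0.25 with H3 as low-FCR, 0.061 with the series as a term and within it, 0.10 without L2, 0.08 without L3 and 0.16 without H3 (leave-one-out range -0.34 to 0.16), and that of DNAJB1 ranged from -0.021 without L3 to 0.46. Leaving out single birds moved HSPB9 between 1.15 and 4.08, DNAJA4 between 0.91 and 1.67 and DNAJC12 between -1.11 and -0.65. The causes of these moves were not tested. The replicate numbers were not taken as a pairing of the birds. Deviations of same-numbered birds correlated at 0.15, 0.14 and 0.0019. The same-numbered high-FCR bird was the best match for L1 and L2 but not for L3, and with 3 birds per group this cannot settle whether the numbers pair them. With the replicate block, 3 members were higher (2.22%), DNAJA4, DNAJA1 and HSPB8, and 1 lower (1.65%) at an unadjusted p under 0.05. The median was 0.14, HSPB9 was not among the 3 (log2 FC 1.92), and 0 passed after adjustment. Depth limits HSPB3 and DNAJC6, with at most 23 counts in any bird, and DNAJC5B, with none.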
